A study of Mus musculus with 4 samples.

Results

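Solute carriers are the membrane proteins that move amino acids, sugars, ions, metals, nucleotides and vitamins across the plasma membrane and the membranes of organelles. In the table of raw counts, 374 gene symbols began with Slc and a digit. Of these, 168 were selected on their raw counts in the libraries compared here, by having at least 20 raw counts in both WT libraries or in both P65KO libraries, out of 27179 genes in the whole table. The counts that chose them are the counts compared below. For that reason results of a test are given only for the 148 genes with at least 20 counts in every library, and the 13 genes that met the rule in the WT pair only and the 7 that met it in the P65KO pair only are described by their counts. By their names 4 of the 168 are no solute carriers, since they are named after one (Slc9a3r1, Slc4a1ap, Slc7a6os and Slc2a4rg-ps), which leaves 164 carriers.

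RNA was sequenced from regulatory T (Treg) cells, the CD4+Foxp3+ T cells that restrain immune responses, of spleen and peripheral lymph nodes from C57BL/6 mice at steady state. There were 2 libraries of WT cells and 2 of P65KO cells, labelled as deficient in RelA (p65), one of the NF-kB subunits that bind DNA and activate target genes. The labels do not give the allele, a Cre driver, the age or sex of the mice, any treatment, or whether replicates came from separate mice. If they did not, the p-values measure only a spread between libraries that may be technical. The title of the series places the comparison in the question of how NF-kB signalling maintains effector Treg cells.

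The libraries held 4513863 to 4624230 counts and 14025 to 14392 detected genes, and 3 counts in a library amounted to 0.646 to 0.664 CPM, the count scaled to library size. Of 8 T cell markers, all at 20 counts or more in every library, Trac and Cd3g were lower in P65KO (log2 -0.31 and -0.27) and 6, Cd4 and Cd3e among them, did not pass. Foxp3 did not pass either. Of the other 5 Treg markers, Ikzf2, Nrp1, Ctla4 and Tnfrsf18 were lower and Il2ra was higher in P65KO. Rela itself had 875 and 806 counts in WT against 820 and 909 in P65KO. A count over the whole gene does not check a deletion of some of its exons. Xist had 494 and 608 counts in WT against 0 and 2 in P65KO, and the Y-linked gene Eif2s3y had 0 and 0 against 332 and 432. The sex of the mice and the genotype label therefore cannot be told apart. Of 16 markers of myeloid or dendritic cells, 8 had 20 counts in every library and 6 of these were higher in P65KO, against 8.26% of all genes at that count. Another 4 reached 20 counts in the P65KO pair only. That choice favours a higher level in P65KO (52.2% of all such genes were called higher), so nothing is read from their direction. The summed level of the 16 was 403 and 467.6 CPM in WT, 1515 CPM in P65KO replicate 1 and 599.7 CPM in P65KO replicate 2, and none was at 0 in every library. Neutrophil markers summed to 31.2 and 24.8 CPM in WT and to 107.8 and 15.1 CPM in P65KO. Erythroid or platelet markers summed to 21.3 and 27.8 CPM in WT and to 104.8 and 192.2 CPM in P65KO, and all 3 at 20 counts in every library were higher. B cell markers summed to 49.5 and 52.7 CPM in WT and to 25.6 and 15.5 CPM in P65KO.

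T cells that leave quiescence need nutrients, and the carriers best known for this are the glutamine and neutral amino acid transporters Slc1a5 and Slc7a5 with its heavy chain Slc3a2, the glucose transporters Slc2a1 and Slc2a3, and the lactate transporters Slc16a1 and Slc16a3. Amino acids that enter by these routes act on mTORC1, a kinase complex that Treg cells need for their suppressive function. Most carriers of the Slc25 family sit in the inner mitochondrial membrane, most Slc30 proteins move zinc out of the cytosol, and Slc39 proteins move zinc into it.

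Among the 148 genes with at least 20 counts in every library, 38 passed the test between genotypes (edgeR quasi-likelihood F test with Benjamini-Hochberg adjustment over 11172 genes, adjusted p under 0.05). That is 25.7% of them, against 18.3% of the 9426 genes of the whole table that met the same count in every library. Of the 38, 13 were higher in P65KO, or 8.78% against a background of 8.26%, and 25 were lower, or 16.9% against a background of 10%. The median log2 fold change of the 148 (P65KO over WT, as everywhere below) was -0.02, against 0.01 for all genes at that count, and 69 values were above 0 and 79 below. The log2 fold changes ran from -2.92 for Slc39a4 to 1.23 for Slc17a9. In 103 of the 148 genes, or 69.6%, the 2 groups did not overlap, against a background of 59.3%. The fit also called 9 of the 20 genes that met the rule in 1 pair only, which brings the calls among all 168 to 15 higher and 32 lower, where 21% of all genes meeting that rule were called (9.01% higher and 12% lower). The rule fixed the direction of those 9, so nothing is read from that count. A choice by the mean of the 4 libraries, which favours neither group, gave 164 Slc genes at 20 counts or more, of which 26.8% were called (9.15% higher and 17.7% lower), against 20.4% of all genes at that mean (9% and 11.4%). Without P65KO replicate 1, 10 of the 148 were higher and 20 lower (6.76% and 13.5%), against 5.01% and 7.14% of the 9426 genes in that fit. In bulk RNA, fewer cells of a kind and less RNA per cell cannot be told apart.

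**Figure D1:**
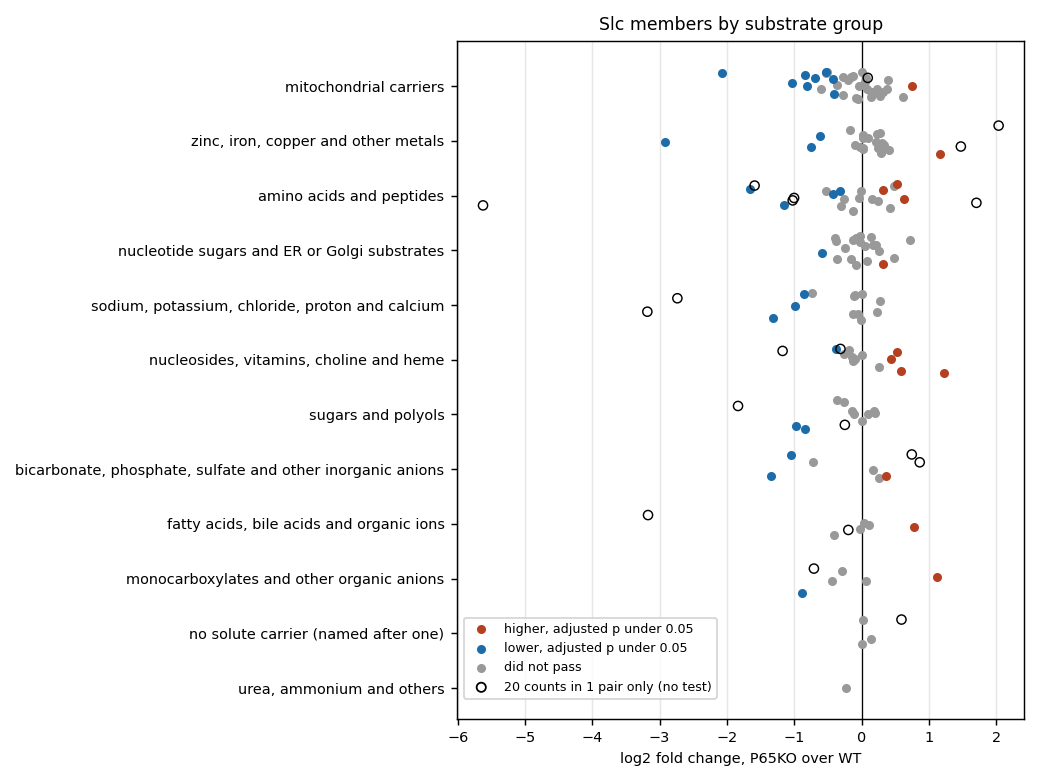
Each point is 1 Slc gene, placed by its log2 fold change (P65KO over WT, horizontal axis) in its substrate group (rows, vertical spread within a row has no meaning). Red and blue points passed the edgeR test as higher or lower, grey points did not, and open circles are the 20 genes at 20 counts in 1 pair only, whose tests are not reported. The far points on the left are Slc39a4 at -2.92 among the metals, Slc25a53 at -2.07 among the mitochondrial carriers and, among the open circles, Slc7a10 at -5.62.

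Levels between genes were compared per length, as RPKM, in which a count is divided by gene length and by the library total. The highest mean RPKM over the 4 libraries belonged to Slc25a5, the ADP/ATP carrier of the inner mitochondrial membrane, at 459.6. It was followed by Slc9a3r1, a scaffold protein and no transporter, at 222 and by the mitochondrial phosphate carrier Slc25a3 at 174.1. The choline transporter-like protein Slc44a2 came next at 132 RPKM, then the second ADP/ATP carrier Slc25a4 at 127.7. Slc50a1, a sugar transporter, reached 81.8, the amino acid transporter Slc1a5 51.0, the nucleoside transporter Slc29a1 49.8 and Slc3a2 47.2 RPKM. Slc44a2 and Slc25a4 overlapped in their library values, so their order is not settled, and the same holds for Slc1a5, Slc29a1 and Slc3a2. The lowest-ranked of the 168 was at 0.825 RPKM. Mitochondrial carriers had a median of 12.8 RPKM and amino acid and peptide transporters one of 8.40.

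**Figure D2:**
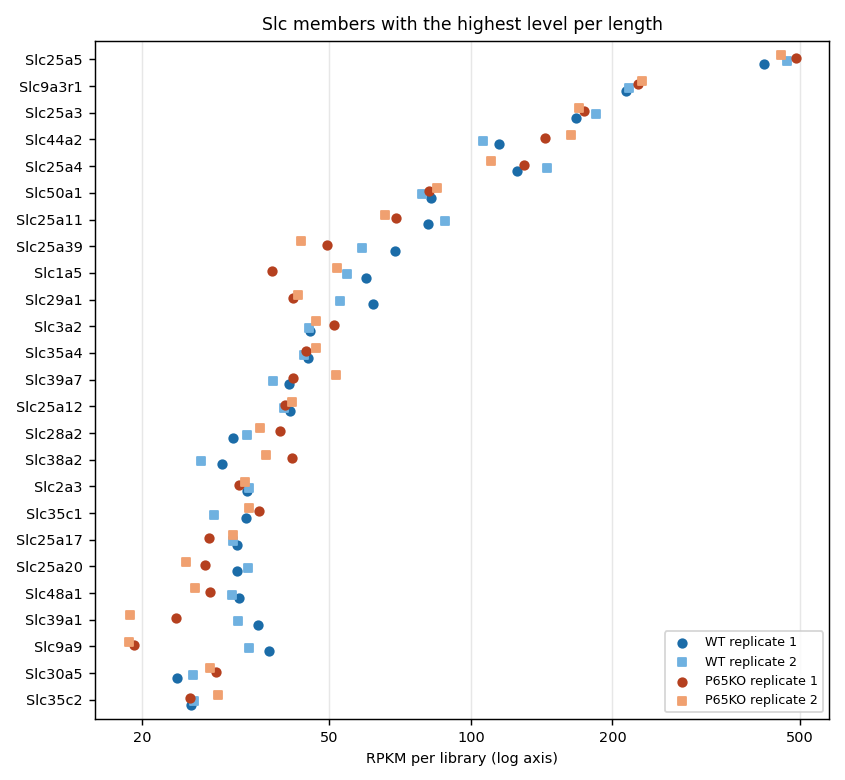
RPKM in each library (log axis) of the 25 Slc genes with the highest mean level per length; blue points are WT and red or orange points P65KO, circles replicate 1 and squares replicate 2. Slc25a5 stands highest in every library, the 4 libraries lie close together for most of these genes, and Slc44a2 lies higher, and Slc39a1, Slc9a9, Slc29a1 and Slc25a39 lower, in both P65KO libraries.

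The changes that were steadiest are shown first. Of the 38 calls, 11 passed the test in all 10 other settings tried (another normalisation, DESeq2, limma-voom, no filter on low counts, no scaling, a replicate block and each library left out), 8 lower and 3 higher. Of the 13 higher and 25 lower calls, DESeq2 did not make 5 and 11 and the fit with no filter 9 and 16. DESeq2 called 5.41% of the 148 higher and 9.46% lower, against 4.66% and 5.47% of the 9426. The calls it did not make were those of Slc7a1, Slc38a1, Slc43a2, Slc20a1, Slc25a1, Slc25a10, Slc25a13, Slc25a33, Slc25a36, Slc25a39, Slc16a6, Slc29a1, Slc29a3, Slc46a3, Slc35g1 and Slc5a3, with DESeq2 adjusted p of 0.075 to 0.292. Slc39a4, a zinc importer that takes up dietary zinc in the gut, had 202 and 210 counts in WT against 32 and 21 in P65KO. Its level was 7.57-fold lower in P65KO (log2 -2.92, SE 0.20, edgeR adjusted p = 7.89e-07), the largest fall among the 148. Slc30a4, which moves zinc from the cytosol into vesicles, had 78 and 74 counts in WT against 180 and 152 in P65KO, which is 2.23-fold higher (log2 1.16, SE 0.16, edgeR adjusted p = 2.65e-04). Thus 1 carrier of zinc into the cytosol fell and 1 out of it rose, each with no overlap between the groups. Most of their relatives did not pass: of the 11 Slc39 genes 2 fell and 9 did not pass, and of the 6 Slc30 genes 5 did not pass. Exons of Slc30a4 overlap another gene on the opposite strand, which the counting may not have separated. Slc39a4 lies on chromosome 15 at 76612383 to 76618506 and Slc30a4 on chromosome 2 at 122681233 to 122702663 (GRCm38.p6, RefSeq).

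Slc4a7, which brings sodium and bicarbonate into the cell, had 641 and 670 counts in WT against 242 and 260 in P65KO, 2.55-fold lower (log2 -1.35, SE 0.10, edgeR adjusted p = 1.77e-06). Slc26a2, a sulfate transporter, had 298 and 330 counts against 147 and 149, 2.07-fold lower (log2 -1.05, SE 0.12, edgeR adjusted p = 4.88e-05). The sodium, potassium and chloride cotransporter Slc12a2 had 194 and 192 counts against 95 and 94 (log2 -0.997, SE 0.14, edgeR adjusted p = 2.89e-04). In these 3 genes the replicates of a group lay close together and far from the other group. Slc9a9, a sodium/proton exchanger of endosomes, fell 1.81-fold, from 587 and 543 counts to 308 and 302 (log2 -0.86, SE 0.10, edgeR adjusted p = 7.45e-05). Its relative in the trans-Golgi network, Slc9a7, fell 2.49-fold, from 130 and 145 counts to 56 and 52 (log2 -1.31, SE 0.17, edgeR adjusted p = 1.78e-04). Both exchangers were lower in each P65KO library than in each WT library.

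Slc36a4, an amino acid transporter of the proton-assisted family, had 84 and 81 counts in WT against 27 and 24 in P65KO, 3.15-fold lower (log2 -1.66, SE 0.24, edgeR adjusted p = 3.31e-04). Slc25a53, a mitochondrial carrier family member with no substrate named here, had 98 and 109 counts against 27 and 21, 4.20-fold lower (log2 -2.07, SE 0.23, edgeR adjusted p = 4.70e-05). Slc25a53 and Slc9a7 are both on the X chromosome, at 136981116 to 137038302 and 20098851 to 20292035, and their difference by genotype cannot be told apart from one by sex. The other 5 X-linked genes among the 168 did not pass, among them Slc25a5 and Slc35a2. Of the genes that rose, Slc17a9, which loads ATP and other nucleotides into vesicles, had 109 and 100 counts in WT against 208 and 271 in P65KO, 2.34-fold higher (log2 1.23, SE 0.16, edgeR adjusted p = 1.59e-04). The fatty acid transport protein Slc27a4 had 123 and 128 counts against 214 and 205, 1.71-fold higher (log2 0.77, SE 0.13, edgeR adjusted p = 0.00115). The P65KO values of both were above every WT value.

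**Figure D3:**
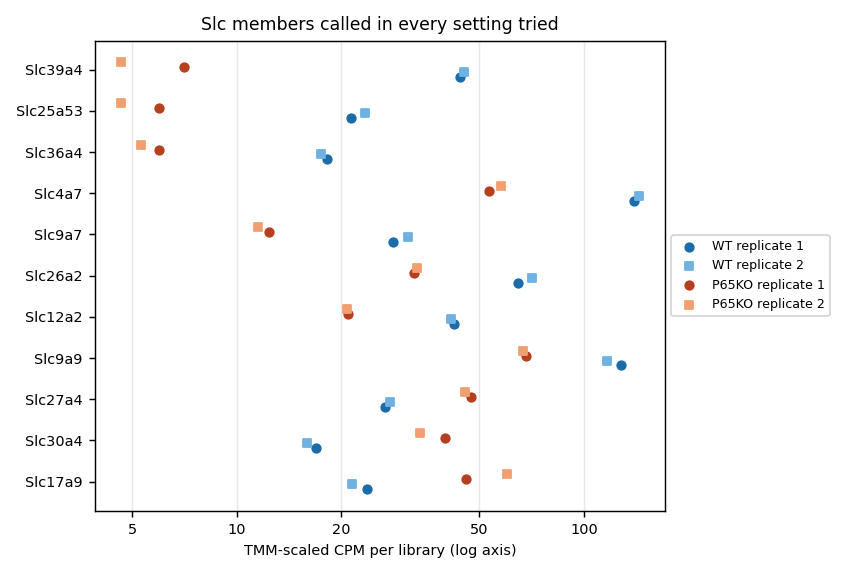
CPM scaled by TMM in each library (log axis) for the 11 Slc genes that passed the test in the reported fit and in all 10 other settings. For the 8 genes at the top the P65KO libraries (red and orange) lie left of the WT libraries (blue), for the 3 at the bottom they lie right, and the groups overlap in none; Slc39a4 is farthest apart.

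Promoter sequences of 127 of the 168 genes were in the RefSeq table (GRCm38.p6), as windows of 300 bases from 250 before to 50 after a gene's start. They were searched on both strands for the kB consensus, the general pattern of NF-kB binding sites, which is 10 bases long. Among the 148 genes with at least 20 counts in every library, 17 of those lower in P65KO had a window and 7 held a match (41.2%), against 0 of 10 that were higher and 6 of 86 that did not pass (6.98%). For all 9426 genes at that count the share was 12.3%, with 15.2% of those lower and 15.7% of those higher, and for the 113 Slc genes with a window together it was 11.5%. The 7 were Slc36a4, Slc39a1, Slc43a2, Slc35b2, Slc29a1, Slc25a10 and Slc25a1, of which DESeq2 called the lower level of Slc36a4, Slc39a1 and Slc35b2. By DESeq2's calls, 3 of 8 held a match. Of the genes that met the count rule in the WT pair only, Slc7a10, Slc24a3 and Slc19a2 held matches. That choice favours a higher level in WT, so nothing is read from their matches. Over all 168 genes, 16 of the 127 with a window held a match (12.6%), against 12.3% of all genes tested. Slc19a2 differed little, with 70 summed counts in WT against 55 in P65KO. Slc39a4 was not among the genes with a window. A match is a run of letters, and whether RelA binds there was not measured.

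Shown are 4 of these windows, 5' to 3' on the gene's strand with the matches in capitals. They are those of Slc7a10, Slc24a3 and Slc36a4, which had the largest differences of the genes named with a match, and that of the zinc importer Slc39a1. Slc7a10 and Slc24a3 met the count rule in the WT pair only, which favours a large difference, so their windows serve as description. The places of the 4 windows are Slc7a10 at chr7:35186135-35186434, Slc24a3 at chr2:145242361-145242660, Slc36a4 at chr9:15709488-15709787 and Slc39a1 at chr3:90247942-90248241, all on the plus strand.
Slc7a10: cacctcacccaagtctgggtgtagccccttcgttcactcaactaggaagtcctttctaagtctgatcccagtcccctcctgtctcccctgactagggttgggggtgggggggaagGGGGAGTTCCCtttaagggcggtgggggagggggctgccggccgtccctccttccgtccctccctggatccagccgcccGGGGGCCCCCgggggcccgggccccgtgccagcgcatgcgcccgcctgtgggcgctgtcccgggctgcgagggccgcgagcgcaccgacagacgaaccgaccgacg
Slc24a3: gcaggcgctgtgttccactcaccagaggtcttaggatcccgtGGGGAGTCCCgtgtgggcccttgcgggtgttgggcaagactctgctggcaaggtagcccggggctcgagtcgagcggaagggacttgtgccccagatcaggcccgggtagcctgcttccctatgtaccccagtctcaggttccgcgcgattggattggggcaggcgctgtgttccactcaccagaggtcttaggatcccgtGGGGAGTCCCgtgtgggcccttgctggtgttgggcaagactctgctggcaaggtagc
Slc36a4: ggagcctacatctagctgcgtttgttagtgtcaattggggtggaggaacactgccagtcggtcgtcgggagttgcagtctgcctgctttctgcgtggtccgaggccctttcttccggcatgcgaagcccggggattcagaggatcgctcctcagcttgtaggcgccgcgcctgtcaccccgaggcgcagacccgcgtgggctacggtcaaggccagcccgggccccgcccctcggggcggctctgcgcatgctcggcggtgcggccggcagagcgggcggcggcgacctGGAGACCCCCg
Slc39a1: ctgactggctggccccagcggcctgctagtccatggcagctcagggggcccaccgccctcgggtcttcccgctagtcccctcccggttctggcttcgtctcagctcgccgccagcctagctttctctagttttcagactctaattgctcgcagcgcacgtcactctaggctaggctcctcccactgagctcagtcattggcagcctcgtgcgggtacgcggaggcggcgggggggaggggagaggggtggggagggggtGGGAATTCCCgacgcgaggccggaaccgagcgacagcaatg
In the Slc7a10 window, overlapping matches begin 135 and 134 bases before the start and another begins 56 bases before it. The Slc24a3 window holds the same 10 bases at 208 and at 7 before the start. The match of Slc39a1 begins 10 bases after the start and that of Slc36a4, read on the opposite strand, 40 bases after it.

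In the substrate groups below, each count of genes that rose or fell stands against 8.26% higher and 10% lower of all genes with 20 counts in every library, and no group's share was tested against that. Amino acid and peptide transporters formed 22 of the 168 genes. Of the 17 with 20 counts in every library, 3 rose, 4 fell and 10 did not pass. Those that rose included Slc7a5, the carrier of large neutral amino acids, with 318 and 342 counts in WT against 451 and 548 in P65KO (1.55-fold, log2 0.63, edgeR adjusted p = 0.00202). Slc38a2, a sodium-coupled carrier of small neutral amino acids, rose 1.44-fold from 618 and 568 counts to 888 and 784 (edgeR adjusted p = 0.00251). The arginine and lysine carrier Slc7a1, named here after its values were seen, had 423 and 395 counts against 475 and 518 (1.24-fold, edgeR adjusted p = 0.0468). The groups did not overlap for any of the 3. With single libraries left out, the edgeR adjusted p was 0.0896 for Slc7a5 without WT replicate 1 and 0.0655 without WT replicate 2, and 0.0769 for Slc38a2 without WT replicate 2. For Slc7a1 it was 0.0800 to 0.283 without any 1 of the 4 libraries.

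Beside Slc36a4, the members that fell were Slc43a3, Slc43a2 and Slc38a1. Slc43a3, which carries purine nucleobases although its relatives carry amino acids, had 92 and 109 counts in WT against 50 and 38 in P65KO (2.23-fold lower, edgeR adjusted p = 0.00198, and 0.0869 without WT replicate 2). Slc43a2, a carrier of large neutral amino acids, had 614 and 472 counts against 394 and 398 (1.34-fold lower, edgeR adjusted p = 0.0304). Slc38a1, a glutamine carrier, had 973 and 834 against 703 and 713 (1.25-fold lower, edgeR adjusted p = 0.0415). The calls of Slc43a2 and Slc38a1 are small and close to the threshold: Slc43a2 had an edgeR adjusted p of 0.134 to 0.279 without P65KO replicate 1, P65KO replicate 2 or WT replicate 1, and Slc38a1 one of 0.0563 to 0.275 without any 1 library. Slc38a1 and Slc38a2 lie 43953 bases apart on chromosome 15, and the first fell while the second rose.

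The heavy chain Slc3a2, partner of Slc7a5, had 607 and 618 counts in WT against 696 and 640 in P65KO (log2 0.16, edgeR adjusted p = 0.273). Slc1a5, the glutamine carrier, had 743 and 694 against 479 and 661 (log2 -0.30, edgeR adjusted p = 0.133). Its value without P65KO replicate 2 was log2 -0.56 with an edgeR adjusted p of 0.0222. So Slc3a2 did not pass in the reported fit, and Slc1a5, whose lowest library was P65KO replicate 1, passed without P65KO replicate 2. The taurine transporter Slc6a6 had 490 and 460 counts against 500 and 599 (log2 0.24), the lysosomal histidine and peptide transporter Slc15a4 104 and 115 against 155 and 132 (log2 0.42), and the aromatic amino acid transporter Slc16a10 45 and 38 against 32 and 24 (log2 -0.53), and none passed. Of 30 genes of amino acid sensing and mTORC1 at the lysosome, all were tested and none passed with edgeR, DESeq2 or limma-voom, with a median log2 fold change of -0.01. At an unadjusted p under 0.05 edgeR had 5 of the 30 higher and 5 lower, where 15.1% and 17.5% of all genes tested were. Of all genes tested, 20.7% passed at the adjusted threshold. Below the count rule, the cystine carrier Slc7a11 had 0 and 2 counts in WT against 11 and 9 in P65KO, and the creatine carrier Slc6a8 had 14 and 10 against 5 and 0.

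Among the sugar and polyol transporters, 12 genes, of the 10 with counts in every library 2 fell, none rose and 8 did not pass. None was higher at an unadjusted p under 0.05 with edgeR either, nor by DESeq2 or limma-voom. Slc2a3, a glucose transporter of high affinity, had 598 and 616 counts in WT against 584 and 606 in P65KO. Its fold was 1.002 within an interval of 0.873 to 1.15 at 95% confidence (edgeR adjusted p = 0.981). The glucose transporter Slc2a1 had 267 and 253 counts against 280 and 303 (log2 0.20, edgeR adjusted p = 0.238). The glucose carriers thus did not differ beyond the test's threshold. Slc45a4, of a proton-coupled sugar transporter family, had 247 and 186 counts against 120 and 116 (1.79-fold lower, edgeR adjusted p = 0.00242, and 0.0805 without WT replicate 1). The myo-inositol transporter Slc5a3 had 47 and 62 counts against 30 and 24 (1.97-fold lower, edgeR adjusted p = 0.0281). Slc5a3 shares exon sequence on the same strand with Mrps6, which also fell (log2 -0.47), and its edgeR adjusted p was 0.110 to 0.262 without P65KO replicate 2, WT replicate 1 or WT replicate 2. Slc50a1 had 379 and 371 counts against 383 and 399 and did not pass.

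Monocarboxylate carriers split in direction. Slc16a5 had 44 and 40 counts in WT against 102 and 77 in P65KO (2.17-fold higher, log2 1.12, edgeR adjusted p = 0.00331), and the edgeR adjusted p was 0.0745 without WT replicate 1 and 0.0942 without WT replicate 2. Slc16a6 had 67 and 85 against 43 and 37 (1.85-fold lower, edgeR adjusted p = 0.0158), with 0.0815 to 0.200 without P65KO replicate 2, WT replicate 1 or WT replicate 2. The exons of Slc16a6 overlap those of Amz2 on the opposite strand, which fell as well (log2 -0.55). Since the strand setting of the counting is not known, reads of the 2 genes cannot be told apart. The lactate carrier Slc16a1 had 283 and 349 counts against 300 and 349 (log2 0.07), and Slc16a3, which exports lactate, 122 and 101 against 102 and 59 (log2 -0.44). Neither passed in the reported fit, and without P65KO replicate 1 Slc16a3 was at log2 -0.88 with an edgeR adjusted p of 0.0231.

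Mitochondrial carriers were the largest group, with 36 genes. Of the 35 with counts in every library, 8 fell, 1 rose and 26 did not pass, that is 22.9% lower and 2.86% higher against 10% and 8.26% of all genes at that count. DESeq2 called 2 of the 35 lower and 1 higher, where it called 5.47% and 4.66% of all genes at that count. By DESeq2 the share lower was thus near that of all genes. The 3 most abundant did not pass. Slc25a5 had 2347 and 2686 counts in WT against 2796 and 2614 in P65KO, Slc25a3 1142 and 1289 against 1208 and 1189, and Slc25a4 625 and 742 against 662 and 566. The carnitine carrier Slc25a20 (log2 -0.28) and the iron carrier Slc25a37 (log2 0.27) did not pass either. Of those that fell, beside Slc25a53, the aspartate and glutamate carrier Slc25a13 had 80 and 87 counts against 53 and 27 (2.04-fold lower, edgeR adjusted p = 0.0182). The citrate carrier Slc25a1 had 229 and 195 against 146 and 142 (1.44-fold lower, edgeR adjusted p = 0.0159). Each P65KO value of both was below each WT value, and with single libraries left out the edgeR adjusted p rose to at most 0.221 for Slc25a13 (past 0.05 without P65KO replicate 2 or either WT library) and 0.181 for Slc25a1 (past 0.05 without any 1 library).

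Further carriers called in this group are named after their values were seen. Slc25a23, a calcium-regulated carrier of ATP-Mg and phosphate and the only one of the group to pass as higher, had 150 and 127 counts against 230 and 223 (1.67-fold higher, edgeR adjusted p = 0.00183, and 0.0617 without WT replicate 2). The pyrimidine nucleotide carriers Slc25a33 and Slc25a36 were 1.80-fold and 1.34-fold lower, the dicarboxylate carrier Slc25a10 1.61-fold lower and the glutathione carrier Slc25a39 1.32-fold lower. These 4 had edgeR adjusted p of 0.0212 to 0.0381, and each lost its call without P65KO replicate 2, without WT replicate 1 and without WT replicate 2, with values of up to 0.241, 0.260, 0.292 and 0.212 in the order named, while Slc25a36 and Slc25a10 also lost it without P65KO replicate 1.

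Of the 24 carriers of zinc, iron, copper and other metals, 22 had counts in every library, and 1 rose, 3 fell and 18 did not pass, with a median log2 fold change of 0.15. Among the 6 Slc30 genes that met the count rule, of a family that mostly moves zinc out of the cytosol, every log2 fold change was above 0 (0.02 to 1.16). Slc30a4 passed and 5 did not. The sign was not steady, since Slc30a1 was at -0.098 without WT replicate 2 and Slc30a7 at -0.033 without P65KO replicate 1. The 11 Slc39 genes had 6 values above 0 and 5 below, and 2 passed as lower. Beside Slc39a4 this was Slc39a1, with 373 and 346 counts in WT against 254 and 204 in P65KO (1.53-fold lower, edgeR adjusted p = 0.00333), whose edgeR adjusted p was 0.0609 to 0.104 without P65KO replicate 2, WT replicate 1 or WT replicate 2. The magnesium carrier Slc41a1, named after its values were seen, had 420 and 326 counts against 211 and 222 (1.69-fold lower, edgeR adjusted p = 0.00153, and 0.0589 without WT replicate 1). Slc39a7, which releases zinc from the endoplasmic reticulum, had 443 and 419 counts against 460 and 570 (log2 0.29), and did not pass except without P65KO replicate 1, with log2 0.44 and an edgeR adjusted p of 0.0428. The iron carrier Slc11a2 (log2 0.02) and the zinc importers Slc39a6, Slc39a8 and Slc39a10 did not pass.

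Among carriers of sodium, potassium, chloride, protons and calcium, 14 genes, the 3 that fell of 12 at counts in every library were Slc9a7, Slc9a9 and Slc12a2, described above. None rose by edgeR, DESeq2 or limma-voom, and 1 was higher at an unadjusted p under 0.05 with edgeR. The potassium and chloride cotransporter Slc12a7 had 573 and 527 counts in WT against 604 and 693 in P65KO (log2 0.27, edgeR adjusted p = 0.0881). Of 8 carriers of inorganic anions, 6 had counts in every library. Slc4a7 and Slc26a2 fell, and the phosphate importer Slc20a1 had 250 and 301 counts against 335 and 356 (1.28-fold higher, edgeR adjusted p = 0.0445). The call of Slc20a1 was lost without any 1 of the 4 libraries, with an edgeR adjusted p of 0.0750 to 0.293. The urea transporter Slc14a1 had 427 and 453 counts against 321 and 409 (log2 -0.24) and did not pass.

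Carriers of nucleosides, vitamins, choline and heme numbered 14, and of the 12 with counts in every library 4 rose, 1 fell and 7 did not pass. Slc44a2 had 1863 and 1757 counts in WT against 2374 and 2712 in P65KO (1.44-fold higher, edgeR adjusted p = 0.00223), and 0.0519 to 0.0793 without P65KO replicate 2, WT replicate 1 or WT replicate 2. Slc29a1, which carries nucleosides at the plasma membrane, had 691 and 600 counts against 476 and 489 (1.31-fold lower, edgeR adjusted p = 0.0175). Its lysosomal relative Slc29a3 had 236 and 224 against 318 and 290 (1.35-fold higher, edgeR adjusted p = 0.0148). The 2 nucleoside carriers thus moved in opposite directions, neither with overlap between the groups and neither called by DESeq2 (adjusted p = 0.075 and 0.136). The lysosomal carrier Slc46a3 had 111 and 133 counts against 207 and 150 (1.496-fold higher, edgeR adjusted p = 0.0319). With libraries left out, the edgeR adjusted p rose to 0.175 for Slc29a1 (past 0.05 without either P65KO library or WT replicate 1), 0.136 for Slc29a3 and 0.290 for Slc46a3 (both past 0.05 without P65KO replicate 1 or either WT library). Slc17a9 was the fourth that rose.

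Of the 20 genes for nucleotide sugars and other substrates of the endoplasmic reticulum and Golgi, all had counts in every library, and 18 did not pass. Slc35b2, which carries the sulfate donor PAPS into the Golgi, had 274 and 285 counts in WT against 169 and 194 in P65KO (1.505-fold lower, edgeR adjusted p = 0.00370), and 0.0520 to 0.0840 without P65KO replicate 1, WT replicate 1 or WT replicate 2. Slc35g1 had 309 and 306 against 372 and 380 (1.25-fold higher, edgeR adjusted p = 0.0392), and 0.115 to 0.183 without any 1 library. Slc35b2 and Slc26a2, both of which supply sulfate for sulfation, were lower in both P65KO libraries. No list of sulfation genes was made, and Slc35b3, a relative of Slc35b2, did not pass (log2 -0.24). Slc35b2 and Slc29a1 lie 17528 bases apart on chromosome 17 and both fell. Of 7 carriers of fatty acids, bile acids and organic ions, 5 had counts in every library and Slc27a4 was the one that passed.

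The 20 genes that met the count rule in 1 pair only are given by their counts, as a description, since the rule fixed their direction to a large part. Ratios are of summed counts, each scaled to library size, with exact intervals at 95% that cover counting error only. Slc7a10, an exchanger of small neutral amino acids and D-serine known from brain and fat, had 71 and 42 counts in WT against 2 and 0 in P65KO. Its ratio was 55.2 in favour of WT (14.9 to 462). Its exons overlap those of Lrp3 on the opposite strand, which had 2 counts in WT replicate 1 and 0 in the other libraries. Slc24a3, a sodium/calcium-potassium exchanger, had 37 and 30 counts against 6 and 1, a ratio of 9.36 (4.30 to 24.2). Both were near 0 in P65KO. Slc22a15, of the organic ion family, had 86 and 82 counts against 11 and 7, a ratio of 9.13 (5.60 to 15.8). Slc12a8, of the cation-chloride cotransporter family, had 28 and 28 against 2 and 6, a ratio of 6.84 (3.25 to 16.6). In both genes each P65KO count was below each WT count.

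Slc37a2, a sugar phosphate exchanger of the endoplasmic reticulum, had 36 and 45 counts in WT against 5 and 17 in P65KO, a ratio of 3.60 (2.23 to 6.06). The serine and alanine exchanger Slc1a4 had 32 and 27 counts against 7 and 12, a ratio of 3.04 (1.79 to 5.39), and the riboflavin transporter Slc52a3 45 and 43 against 21 and 17, a ratio of 2.27 (1.53 to 3.41). All 3 were lower in each P65KO library than in each WT library. The remaining 6 of the 13 had ratios of 1.15 (Slc22a2) to 2.05 (Slc43a1). Slc43a1 lies 72958 bases from Slc43a3, which fell, on chromosome 2. With 1 library left out, the fitted log2 fold change ran from -8.81 to -4.71 for Slc7a10, from -4.87 to -2.43 for Slc24a3, from -3.70 to -2.16 for Slc12a8 and from -2.96 to -1.21 for Slc37a2, where both ends came from leaving out a P65KO library.

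Of the 7 genes at 20 counts in the P65KO pair only, Slc11a1, the metal transporter of macrophage phagosomes, had 13 and 7 counts in WT against 61 and 20 in P65KO, a ratio of 4.14 in favour of P65KO (2.51 to 7.13). The iron exporter Slc40a1 had 9 and 31 counts against 59 and 50, a ratio of 2.79 (1.92 to 4.11). The peptide transporter Slc15a2 had 28 and 0 counts against 56 and 34, a ratio of 3.29 (2.13 to 5.22), with WT replicate 2 at 0. Slc11a1 was highest in P65KO replicate 1, the library with the highest sums of myeloid and of neutrophil markers, and Slc40a1 was high in both P65KO libraries. The myeloid sum was higher in both P65KO libraries and the neutrophil sum in P65KO replicate 1, and their part in the result was not tested. Slc15a3, a lysosomal peptide transporter also found in macrophages, had 33 and 39 counts in WT against 21 and 14 in P65KO. Without P65KO replicate 1 the fitted log2 fold change of Slc11a1 was 1.03, without P65KO replicate 2 2.62, and without WT replicate 1 2.55. Slc40a1 ran from 0.85 without WT replicate 1 to 2.61 without WT replicate 2, and Slc15a2 from 0.71 without WT replicate 2 to 8.51 without WT replicate 1.

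**Figure D4:**
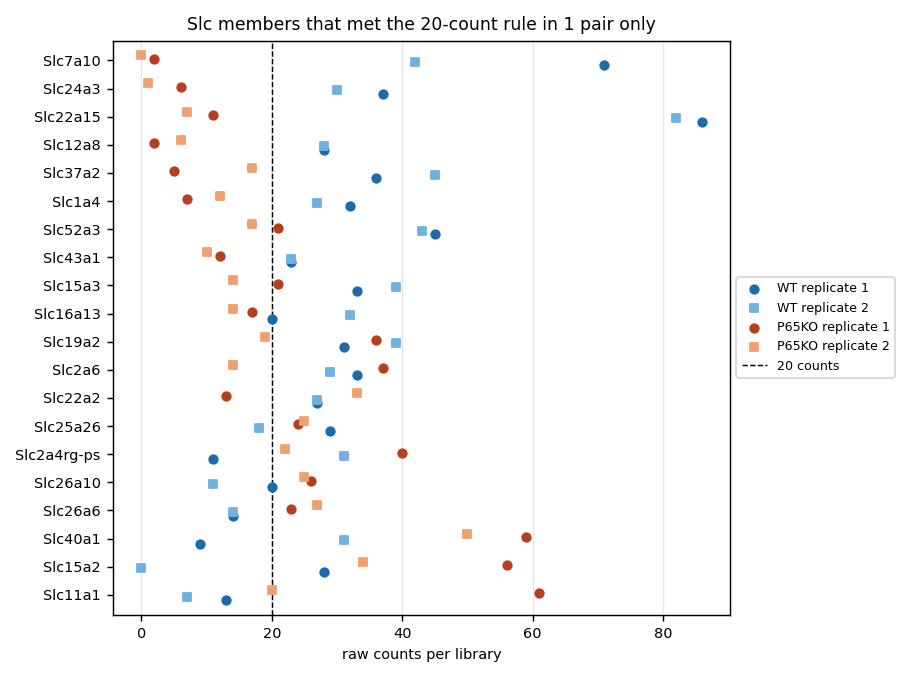
Raw counts in each library of the 20 Slc genes that met the rule of 20 counts (dashed line) in 1 pair only, ordered by log2 fold change. Slc7a10 is at the top with 71 and 42 counts in WT against 2 and 0 in P65KO, and Slc11a1 at the bottom with P65KO replicate 1 alone far to the right at 61.

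**Figure D5:**
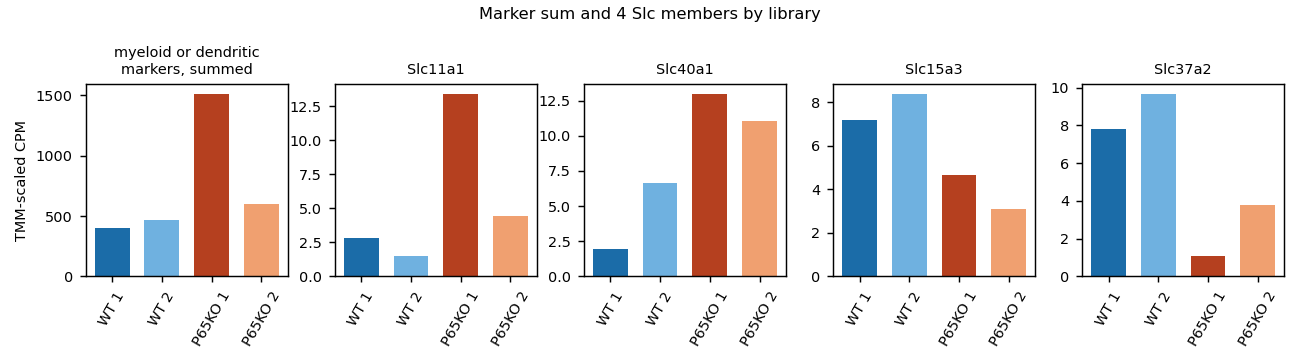
Bars give the TMM-scaled CPM in each of the 4 libraries (each vertical axis starts at 0 and has its own scale) of the summed 16 myeloid or dendritic markers and of 4 Slc genes. The marker sum and Slc11a1 are highest in P65KO replicate 1, Slc40a1 is high in both P65KO libraries, and Slc15a3 and Slc37a2 are higher in both WT libraries.

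Just inside the rule were Slc16a13, with 20 and 32 counts in WT against 17 and 14 in P65KO, Slc11a1 and Slc2a4rg-ps. Just outside were Slc26a11 with 25 and 19 against 19 and 18, Slc35e4 with 26 and 19 against 4 and 6, and Slc8a1 with 7 and 7 against 37 and 19. Of the 206 Slc symbols below the rule, 109 had no count in any library and 97 had at least 1. The neutral amino acid carriers Slc7a7 and Slc7a8 were among them, with 14, 10, 18 and 13 counts and 2, 2, 46 and 8 counts in WT replicates 1 and 2 and P65KO replicates 1 and 2. The insulin-responsive glucose transporter Slc2a4 had 1 count in all.

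Transporters outside the Slc symbols were taken from lists made for this comparison. Of 19 solute carriers with other symbols and 20 counts in every library, 2 fell (Mfsd10 and Nipa2), none rose by edgeR, DESeq2 or limma-voom (1 at an unadjusted p under 0.05 with edgeR), and 17 did not pass, with a median log2 fold change of 0.01, so the share is near the background of 10% lower. Mfsd10 had 162 and 159 counts in WT against 99 and 70 in P65KO (log2 -0.89, edgeR adjusted p = 0.00312). Of 22 ABC transporters at that count, the pumps that use ATP, 1 rose, 6 fell (27.3%, against 10% of all genes) and 15 did not pass, with a median of -0.05. The drug efflux pump Abcb1a had 357 and 293 counts against 70 and 78 (log2 -2.10, SE 0.15, edgeR adjusted p = 1.33e-06), and the lysosomal peptide pump Abcb9 456 and 443 against 223 and 224 (log2 -0.98, edgeR adjusted p = 3.10e-05). Both were far lower in each P65KO library. Of 8 accessory proteins of transporters, Magt1 rose, Emb, a chaperone of lactate carriers, fell, and 6 did not pass, among them the related chaperone Bsg with 990 and 1028 counts against 921 and 842.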

How the data were processed

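RNA sequencing of 2 WT and 2 P65KO libraries was compared. Per the labels' protocols, the kits were RNeasy Plus Mini for RNA and TruSeq RNA for libraries. The submitters' processing notes name Subread, featureCounts, limma and GRCm38/mm10; no version, annotation or strand setting was given in the sources used here. The authors deposited raw counts for 27179 genes, of which 571 had no symbol and were kept, and a log2 RPKM per library. The deposited log2 values equalled log2 of count plus 0.5 per length and total, with 1 length within 0.01 for each gene; RPKM here are these values with the log2 undone.

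Genes were filtered with filterByExpr, scaled by TMM and tested on group alone in R 4.3.3 with edgeR 4.0.16 (glmQLFTest), two-sided, with Benjamini-Hochberg adjustment over 11172 genes at 0.05. Other settings were RLE scaling, no scaling, no filter, DESeq2 1.42.0, limma-voom 3.58.1, a replicate block, each library left out, other count limits and no X or Y genes. Genes rose or fell only where the test was passed. Library totals were 4513863 to 4624230. Ratio intervals and floors cover counting error only; the interval of a fitted fold is edgeR's and includes the spread between libraries. The chi-square between replicates, divided by its degrees of freedom, was 3.49 for WT and 3.97 for P65KO, so replicates differed by more than counting error. This cannot tell whether they came from separate mice. Groups and replicate numbers came from the titles.

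The Slc genes and all lists were chosen with earlier results of these data known. Substrate groups were assigned by family, except that some genes were placed singly, such as Slc16a10 with the amino acid carriers and Slc17a9 with the nucleoside carriers. Slc43a3 was left with its family among the amino acid carriers. The counts per group depend on these choices. Named are, per group, called genes of at least 2-fold change (or up to 2 called genes), the 2 with the highest RPKM, a set of nutrient and ion carriers whatever their values, and the genes at 20 counts in 1 pair only with the largest ratios; others are marked as named after their values were seen. Results of some genes are not reported here. Marker lists covered T, Treg, B, CD8 T, NK, myeloid or dendritic, neutrophil, erythroid or platelet, and stromal or endothelial cells. Tested higher and lower were 0 and 2 of 8 T cell, 0 and 2 of 2 B cell, 0 and 0 of 1 CD8, 0 and 1 of 5 NK, 0 and 0 of 3 neutrophil and 1 and 0 of 1 stromal markers. Exons of 52 of the 168 genes overlap those of another gene, 9 on the same strand, so their reads are uncertain. Called genes at 20 counts in every library with such overlap on the opposite strand include Slc16a5, Slc20a1, Slc25a10, Slc25a23, Slc25a33, Slc29a1, Slc30a4 and Slc43a2. Slc37a2, at 20 counts in the WT pair only, has such an overlap too. The kB consensus was searched by its usual 10-base pattern. Scripts were tested on simulated data.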

Additional observations from a re-analysis of the deposited data

How the results depend on the processing

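The numbers of Slc genes higher and lower were 15 and 32 of 168, with the genes at 20 counts in 1 pair only included. Those of the genes meeting the same rule were 921 and 1224 of 10223, and those of all genes tested 1005 and 1305 of 11172. The rule set the direction of the calls at 20 counts in 1 pair only, so no excess is read from the counts in this section. DESeq2 gave 9 and 19 (587 and 731 of all genes), and no filter gave 4 and 11 (246 and 525). With 1 library left out, the Slc counts ran from 4 to 10 higher and from 12 to 26 lower, and those of all genes from 250 to 682 and from 493 to 1029; the lowest were without WT replicate 1 or 2. RLE scaling gave 15 and 32 (1040 and 1290 of all genes) and limma-voom 15 and 33 (957 and 1288). Leaving out X and Y genes gave 15 and 30, so these settings moved the Slc counts little. No scaling gave 12 and 38 (823 and 1485 of all genes), with a median log2 fold change of the 148 genes of -0.068 in place of -0.02. That median was -0.062 to 0.028 with 1 library left out, against a spread between replicates of 0.0166. With limits of 10 or 50 counts, the rule took 177 and 137 genes, with 16 and 34, and 14 and 25, called. These include genes that met the limit in 1 pair only. The share of all genes at those limits is not given, so no excess is read from these counts. The replicate block gave 15 and 33 (996 and 1323), and ended 3 calls: Slc7a1 (adjusted p = 0.0743), Slc35g1 (0.0744) and Slc38a1 (0.0575). Same-numbered libraries deviated in opposite ways (correlation -0.137), so the numbers pair nothing by these data; the crossed pairing, tried after seeing the data, gave 21 and 39 (1387 and 1586). Of 780 values of named genes, 640 kept direction and call, 87 lost the call and 24 changed sign, all of genes that passed under neither. With no scaling these were Slc25a3 (-0.035), Slc11a2 (-0.024), Slc2a3 (-0.044) and Slc10a3 (-0.0061), and Slc4a1ap with DESeq2 (0.0055), RLE (0.0057), voom (0.0034) and the replicate block (0.0014). With 1 library left out the values ran from -0.067 to 0.098 for Slc25a3, -0.095 to 0.35 for Slc22a5, -0.043 to 0.089 for Slc11a2, -0.21 to 0.013 for Slc39a6, -0.067 to 0.23 for Slc16a1, -0.11 to 0.12 for Slc4a1ap, -0.028 to 0.037 for Slc2a3, -0.24 to 0.0020 for Slc25a4, -0.37 to 0.087 for Slc7a6 and -0.098 to 0.17 for Slc10a3. The cause was not tested for any of these. Depth limits genes near 20 counts, where 3 counts are the floor.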
